A study of Mus musculus with 52 samples.

Results

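Narrow H3K4me3 promoter peaks are the short stretches of trimethylated histone H3 lysine 4 that lie at gene starts. They were found by intersecting the deposited peak lists of all 6 H3K4me3 libraries and keeping the shared intervals that were under 1000 bp wide and within 1000 bp of a RefSeq transcription start site (TSS). Of 16700 intervals covered by a peak in every library, 12134 were within that distance of a TSS, and 1132 of these were narrow, leaving 11002 wide promoter intervals. The 1132 narrow intervals were nearest to 1010 gene symbols, or 4.159% of the 24286 in the gene tables. The members were chosen by the positions and widths of the peaks in all 6 H3K4me3 libraries, so widths, scores and distances of those peaks are given as a description, with no test of one class of interval against another.

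The series is a chromatin immunoprecipitation and sequencing study of immortalized mouse embryonic fibroblasts in which both alleles of MLL2, a histone H3K4 methyltransferase, carry loxP sites. F/F cells are these cells at 0 h of tamoxifen, and FC/FC cells are the same cells after 24 h of tamoxifen, which excises both alleles, so the deletion and the drug treatment go together and cannot be told apart. By the study's methods the drug was washed out and cultures normally grew for nearly a week more before harvest. Each of H3K4me1, H3K4me2 and H3K4me3 was measured in 3 F/F and 3 FC/FC libraries, described as independent replicates. Of 52 samples in the series, these 18 were analysed here.

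The 18 libraries held 26714377 to 49990775 reads, and the H3K4me3 libraries held 17129 to 18701 peaks each. Collagens and other fibroblast matrix genes had only wide promoter intervals in 30 of 35 cases, beside 47.71% of all genes. Among lists of other lineages this held for 9 of 20 adipogenic, 4 of 23 haematopoietic and 2 of 20 epithelial genes. It also held for 2 of 24 neural, 2 of 16 endothelial and 1 of 24 myogenic genes. Narrow intervals were at 3 more epithelial, 3 more neural and 1 more haematopoietic gene. In H3K4me2 FC/FC replicate 1 the label gives the catalogue number that other labels give for the H3K4me1 antibody. Across genes its RPKM had a Spearman correlation of 0.988 to 0.99 with the rest of the H3K4me2 set (5 libraries), as against 0.814 to 0.847 for H3K4me1 (6 libraries). It was kept under its labelled mark, and H3K4me2 results are also given without it.

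H3K4me3 marks the start of genes, and the COMPASS family of methyltransferases, to which MLL2 belongs, places H3K4 methylation at promoters and enhancers. Its width at a promoter follows the nucleosomes around the start site, and the enzymes that deposit it are drawn to unmethylated CpG-rich DNA, the CpG islands that cover most housekeeping promoters. H3K4me2 usually flanks and overlaps H3K4me3, while H3K4me1 lies further out and at enhancers.

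The DNA at narrow intervals ranged from CpG-poor to CpG-dense, and the sequences below show that range. The promoter windows, taken from RefSeq on mm10 (GRCm38), run from 250 bases before the TSS to 50 bases from it, 300 bases each, 5′ to 3′ on the gene's strand, with every CpG in capitals. Ttc30a2, an intraflagellar transport gene (chr2:75978130-75978429, minus strand), had 5 CpGs and 39.33% GC. Stard10, a lipid transfer protein gene (chr7:101321069-101321368, plus strand), had 42 CpGs and 80.33% GC. Both held an isolated interval, one with no other shared interval within 1000 bp, as did Olfr212 (chr6:116506266-116506565, plus strand; 13 CpGs), the only olfactory receptor gene among the members. Kctd6, an adaptor of cullin ubiquitin ligases (chr14:8213831-8214130, plus strand; 33 CpGs), and Fxr2, an RNA-binding paralogue of the fragile X protein (chr11:69632721-69633020, plus strand; 32 CpGs), held intervals lying beside another one.
Ttc30a2: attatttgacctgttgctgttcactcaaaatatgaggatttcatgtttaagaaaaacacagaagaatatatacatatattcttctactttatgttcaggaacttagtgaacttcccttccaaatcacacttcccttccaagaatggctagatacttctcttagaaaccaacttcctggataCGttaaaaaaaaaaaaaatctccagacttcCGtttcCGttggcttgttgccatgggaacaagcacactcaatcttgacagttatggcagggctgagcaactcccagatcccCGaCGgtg
Stard10: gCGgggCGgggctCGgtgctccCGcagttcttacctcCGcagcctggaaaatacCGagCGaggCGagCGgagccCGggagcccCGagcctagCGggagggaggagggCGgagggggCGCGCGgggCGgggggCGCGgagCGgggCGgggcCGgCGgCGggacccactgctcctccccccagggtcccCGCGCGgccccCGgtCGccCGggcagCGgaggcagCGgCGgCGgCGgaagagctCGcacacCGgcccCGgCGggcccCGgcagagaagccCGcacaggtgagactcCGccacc
Olfr212: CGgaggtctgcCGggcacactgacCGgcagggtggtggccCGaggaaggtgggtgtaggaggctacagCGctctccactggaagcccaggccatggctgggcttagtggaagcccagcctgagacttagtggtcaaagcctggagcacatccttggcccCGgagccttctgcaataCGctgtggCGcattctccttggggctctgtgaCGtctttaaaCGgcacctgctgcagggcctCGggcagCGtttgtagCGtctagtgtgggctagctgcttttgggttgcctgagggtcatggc
Kctd6: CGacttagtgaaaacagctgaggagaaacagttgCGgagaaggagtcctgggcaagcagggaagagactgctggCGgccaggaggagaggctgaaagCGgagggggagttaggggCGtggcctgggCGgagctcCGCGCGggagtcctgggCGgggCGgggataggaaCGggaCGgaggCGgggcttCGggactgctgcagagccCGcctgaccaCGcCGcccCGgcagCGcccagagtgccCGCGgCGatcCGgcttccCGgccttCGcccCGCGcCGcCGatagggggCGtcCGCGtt
Fxr2: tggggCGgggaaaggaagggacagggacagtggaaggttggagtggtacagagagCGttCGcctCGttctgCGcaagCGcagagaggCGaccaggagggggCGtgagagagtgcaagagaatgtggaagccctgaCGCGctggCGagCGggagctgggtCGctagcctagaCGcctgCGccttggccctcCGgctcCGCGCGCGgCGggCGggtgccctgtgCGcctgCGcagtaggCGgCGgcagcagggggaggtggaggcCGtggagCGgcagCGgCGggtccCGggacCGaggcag

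A last stretch, read from the mm10 genome on the minus strand, is the 127 bp between the narrow interval and its wide neighbour at Atp1b3, which encodes a beta subunit of the sodium pump (chr9:96364317-96364443). It is shown because the peaks on its sides were separate in F/F and joined in FC/FC libraries, as described further on. It was 85.83% GC with 25 CpGs, again in capitals, while the intervals on its sides were 50.51% and 52.9% GC.
Atp1b3 gap: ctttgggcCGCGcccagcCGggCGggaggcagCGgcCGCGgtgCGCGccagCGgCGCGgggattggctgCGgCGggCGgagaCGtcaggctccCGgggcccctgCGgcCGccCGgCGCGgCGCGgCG

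The narrow class held intervals of 2 kinds. Of the 1132, 483 (42.67%) were isolated, and 649 (57.33%) were adjacent to another shared interval. Isolated intervals held the TSS itself in 315 cases (65.22%), adjacent ones in 162 (24.96%) and wide ones in 10192 of 11002 (92.64%). The middle of the interval lay a median of 122.5 bp downstream of the TSS in isolated, 330.5 bp downstream in wide and 332 bp upstream in adjacent intervals. The middle was upstream in 33.33% of isolated, 70.88% of adjacent and 15.89% of wide intervals. In adjacent pairs the neighbour lay downstream for 459 of 649 narrow intervals (70.72%).

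**Figure D1:**
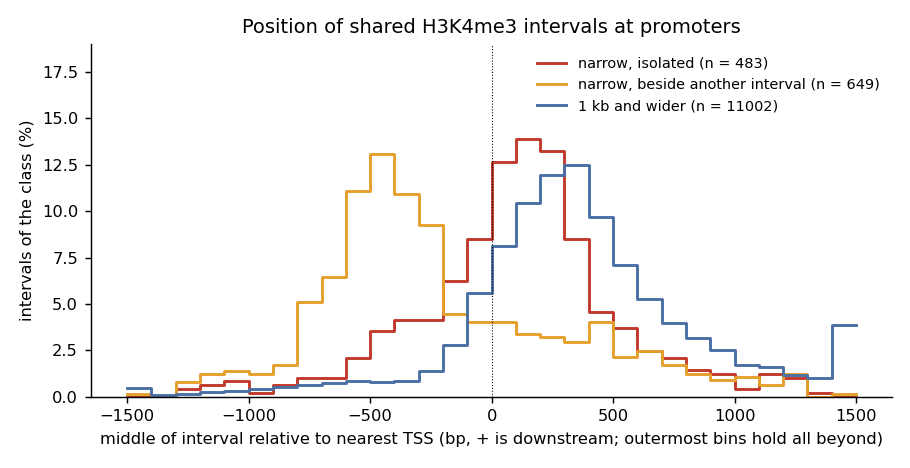
Position of the middle of each shared H3K4me3 interval relative to its TSS (x axis, base pairs, positive values downstream) against the percent of isolated, adjacent and wide promoter intervals in each bin (y axis), with the outermost bins holding everything beyond. Adjacent intervals lie mostly upstream of the TSS (median 332 bp), while isolated and wide ones are centred downstream (medians 122.5 and 330.5 bp).

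The median width of the shared stretch was 749 bp (quartiles 584.8 and 873.2 bp, range 2 to 999 bp), against 2400 bp for the wide class. Just inside the limit were Sh3bp2 and Lonrf1 at 998 bp and Pdxk-ps at 999 bp, and just outside were F2rl1 and Aven at 1000 bp and Agap1 at 1001 bp. A shared stretch is no wider than the peaks it comes from, and the label "narrow" was therefore checked in each library. The peak over the interval was itself under 1000 bp in all 6 libraries at 83 of the 1132, in no library at 231, and in exactly 1, 2, 3, 4 or 5 libraries at 363, 176, 106, 91 and 82. Per library this was 34.81%, 48.14% and 28.98% of the intervals in F/F and 38.16%, 25.71% and 27.83% in FC/FC, so that the 2 genotypes overlapped. Most members were thus narrow in what the libraries share, and only a small share was narrow as a peak in every one of them.

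The median peak width over the narrow intervals was 1124 ± 95.8 bp in F/F and 1208 ± 82.2 bp in FC/FC (SD, n = 3 each), and over the isolated ones 1019 ± 74.2 and 1049 ± 77.9 bp. The wide class had 2793 bp in F/F and 2759 bp in FC/FC. The median peak score, which MACS takes from the logarithm of a p-value against the H3 library, was 620, 241 and 583 in the 3 F/F libraries at narrow intervals. Wide intervals sat at 3100, the value at which most of the deposited scores saturate. F/F replicate 2 had the lowest score of the 3 at narrow intervals and also the largest share of short peaks over these chosen intervals. In its own peak list the share of promoter peaks under 1000 bp was the lowest of the 3, at 5.454% against 6.469% and 5.809%.

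Among intervals that held a TSS and had a peak under 1000 bp in at least 5 libraries (66 of 165 with such peaks), the strongest by score rank were a mixed group of genes. At Ttc30a2 (chr2:75977543-75978283) the peak was 835, 884 and 964 bp wide in F/F and 753, 913 and 840 bp in FC/FC, with scores of 644, 348, 849, 712, 586 and 762. At Stard10 (chr7:101321241-101322010) the widths were 782, 856 and 850 bp in F/F and 832, 1136 and 810 bp in FC/FC. At Kctd6 (chr14:8213500-8214088) F/F replicate 2 alone joined the peak to its neighbour, with 2411 bp against 672 to 847 bp in the other 5. The zinc finger genes Zfp280d and Zfp746 showed the same, with 2781 bp in FC/FC replicate 2 and 2609 bp in F/F replicate 3, respectively. In each of these 3 the joined peak scored 3100, which raised the mean rank. In the other 5 libraries the scores were 459 to 912 at Kctd6, 165 to 639 at Zfp280d and 95.1 to 190 at Zfp746. Zfp704, Asphd1, Nol4l, Gm12338 and the microRNA gene Mir682 completed the 10, with widths of 454 to 1051 bp. Counted upward from the weakest of all shared intervals, the mean score ranks of the 10 ran only from 14.95% (Mir682) to 26.97% (Kctd6). The TSS of Sez6l2 also lay within 1000 bp of the Asphd1 interval, so that peak cannot be assigned to either gene.

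At the short end, adjacent intervals were mere slivers of a divided peak. The 3 narrowest that held a TSS were at Fxr2 (84 bp), Klf4 (97 bp), which encodes a zinc finger factor used in reprogramming, and Usf2 (120 bp), a basic helix-loop-helix factor binding E boxes. Over the Fxr2 sliver the peaks were 3190, 1251 and 2537 bp wide in F/F and 2373, 3141 and 3610 bp in FC/FC. Over the Klf4 sliver (chr4:55532464-55532560) they were 3699, 5328 and 2017 bp in F/F and 1947, 5315 and 5455 bp in FC/FC. None of these was a narrow peak in any library.

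The gaps that split adjacent intervals had a composition of their own. The 649 adjacent intervals formed 628 pairs with a neighbour, of which 495 (78.82%) had a neighbour of 1000 bp or more and 133 had 2 narrow sides. The gap was a median of 108 bp (quartiles 35 and 197 bp, range 1 to 974 bp), and it held the TSS in 153 pairs (24.36%). In 539 gaps of at least 20 bp the median GC content was 81.63% (quartiles 75.48% and 84.45%), against 56.53% (51.66% and 61.95%) in the intervals on their sides. CpGs were at 16.64 per 100 bp in gaps and 5.224 in those intervals. The gap was richer in GC than both of its sides in 435 (80.71%), and at least 75% GC in 409 (75.88%). Repeat-masked bases made up at least 50% of the gap in 43 (7.978%).

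**Figure D2:**
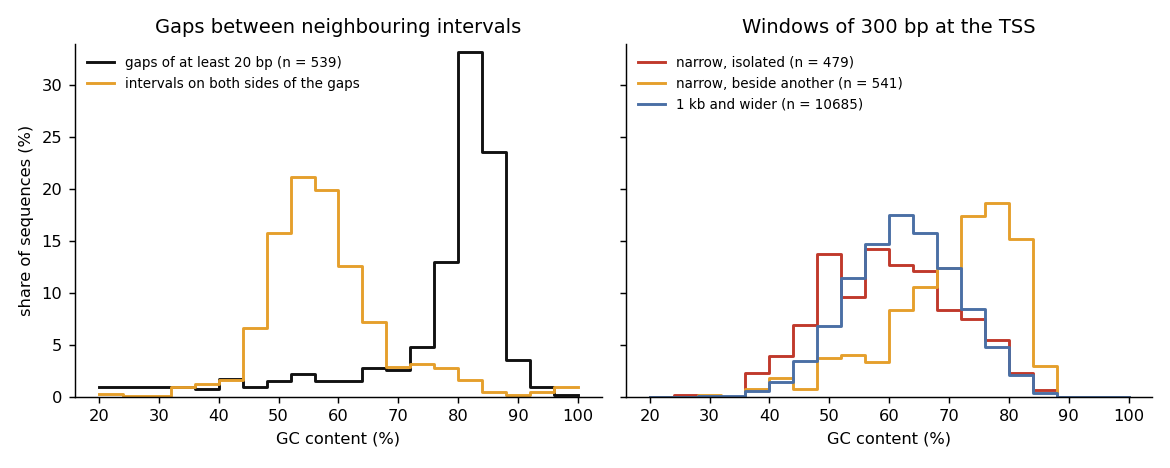
GC content (x axis, percent) against the percent of sequences in each bin (y axis), on the left for the 539 gaps of at least 20 bp and the intervals on their sides, and on the right for the 300-base windows at the TSS of isolated, adjacent and wide intervals. Gaps have a median of 81.63% and flanking intervals 56.53%, and the adjacent windows lie to the right of the isolated ones (medians 73.33% and 59.67%).

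Whether a gap was called differed from library to library. The pairs were separate peaks in 202, 379 and 269 of 628 cases in the F/F libraries and in 233, 265 and 175 in FC/FC. They were separate in exactly 1 library at 311 pairs, 118 of them in F/F replicate 2 alone, and in all 6 at 67. The part that sequence composition has in how reads are amplified, mapped and called as a peak was not tested.

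Isolated and adjacent narrow intervals differed in the DNA around the TSS. In the 300-base window around the TSS, isolated intervals (n = 479) had a median GC of 59.67% and 14 CpGs (quartiles 8 and 25), and 31.94% of them had fewer than 10. Adjacent intervals (n = 541) had 73.33% and 35 CpGs (24 and 45), with 7.024% under 10. Wide intervals (n = 10685) lay between, with 62.33% and 22 CpGs (15 and 30), while all 32851 promoters of the RefSeq table had 52.67% and 7 CpGs (3 and 20). The ratio of observed to expected CpG followed the same order, at 0.5852 in isolated, 0.7984 in wide and 0.9153 in adjacent intervals. The intervals' own bases were more alike, with a median GC of 58.62% in isolated and 57.29% in adjacent ones. Their CpGs were at a median of 5.098 and 5.527 per 100 bp. Wide intervals did not lie between these but were lowest by both, at 52.24% and 3.879. Of the windows printed above, Ttc30a2 is CpG-poor, Olfr212 lies near the isolated median, Fxr2 and Kctd6 lie near the adjacent one, and Stard10 is isolated and CpG-dense.

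The letters of 8 short motifs were searched on both strands of the same windows, as a description only. GGGCGG, the GC box, was in 56.99% of isolated, 84.66% of adjacent, 69.78% of wide and 35.66% of all promoter windows. GGAAGT, an ETS core, was in 17.12% of isolated and 11.83% of adjacent against 27.4% of wide and 23.77% of all windows. TGACTCA, the AP-1 site, was in 5.428% of isolated, 1.479% of adjacent, 3.163% of wide and 5.202% of all, and CAGGTG, an E box, in 25.05%, 15.9%, 15.64% and 20.21%. TATAAA was in 6.681%, 5.176%, 6.027% and 13.62%, so the narrow classes were not richer in it than the table as a whole. CCAAT (35.91%, 32.35%, 38.02% and 37.41%), CACGTG (6.263%, 10.54%, 10.32% and 7.15%) and the NRF1 consensus (0.2088%, 2.033%, 2.096% and 0.9711%) completed the set. The classes also differ in GC content, as given above, and none of the motifs contains another.

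By the middle base of the interval, 15.94% of isolated, 44.53% of adjacent and 6.453% of wide intervals lay between genes. Introns held 29.19%, 28.66% and 53.34%, noncoding parts of exons 38.72%, 21.26% and 26.78%, and coding exons 15.32%, 5.547% and 13.4%. Another gene's TSS lay within 1000 bp of 24 isolated (4.969%), 46 adjacent (7.088%) and 1721 wide intervals (15.64%). That search took in the interval and 1000 bp on each side, so it covered more sequence at wide intervals. Many genes with an adjacent interval also had a wide one (428 of 536), against 24 of 476 genes with an isolated interval.

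Genes with an isolated interval were seldom active. The deposited tables mark a gene as active when its RPKM, reads per kilobase of transcript scaled to library size, exceeded 1 in RNA polymerase II, nascent RNA and γH2AX libraries. By that mark 9 of 483 isolated (1.863%), 130 of 649 adjacent (20.03%) and 3796 of 11002 wide intervals (34.5%) were at active genes, beside 4141 of all 24286 genes (17.05%). Noncoding transcripts were nearest to 10.77% of isolated, 4.777% of adjacent and 4.663% of wide intervals. Over the whole transcript and 500 bp on each side, the median H3K4me3 level per length was 0.3337 ± 0.0079 RPKM in F/F and 0.335 ± 0.0107 in FC/FC (SD, n = 3 each) for isolated, 0.8032 ± 0.0266 and 0.8259 ± 0.0233 for adjacent, and 2.014 ± 0.0285 and 2.037 ± 0.0478 for wide intervals. As median transcripts were 21810 bp for isolated and 37840 bp for adjacent intervals, such a level covers far more than a peak shorter than 1000 bp. In a bulk sample, fewer cells with the mark and less of it per cell cannot be told apart.

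Of the other 2 marks, H3K4me2 was present at almost every narrow interval and H3K4me1 at little more than every other one. An H3K4me2 peak overlapped 95.94 ± 0.39% of them in F/F and 96.7 ± 0.48% in FC/FC (SD, n = 3 each), and 99.98% and 99.99% of the wide intervals. It was there in all 6 libraries at 93.55% of the narrow intervals and in none at 17. H3K4me1 overlapped 56.45%, 47.79% and 61.75% in F/F and 60.34%, 55.21% and 58.22% in FC/FC, and without F/F replicate 2, the lowest, the mean in FC/FC was the lower by 1.178 percentage points. The wide intervals had 87.51 ± 4.56% and 93.1 ± 0.71%. In all 6 libraries H3K4me1 was there at 33.3% of narrow and 75.63% of wide intervals, and in none at 23.59% and 2.172%. Isolated and adjacent intervals were alike in this, with 55.14 ± 6.74% and 55.47 ± 7.44% in F/F. Any shared base counted as overlap, and wide intervals are longer by definition (median 2400 bp against 749 bp for narrow ones). They thus have more room to touch a peak of another mark, and the part of width in these differences was not tested.

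**Figure D3:**
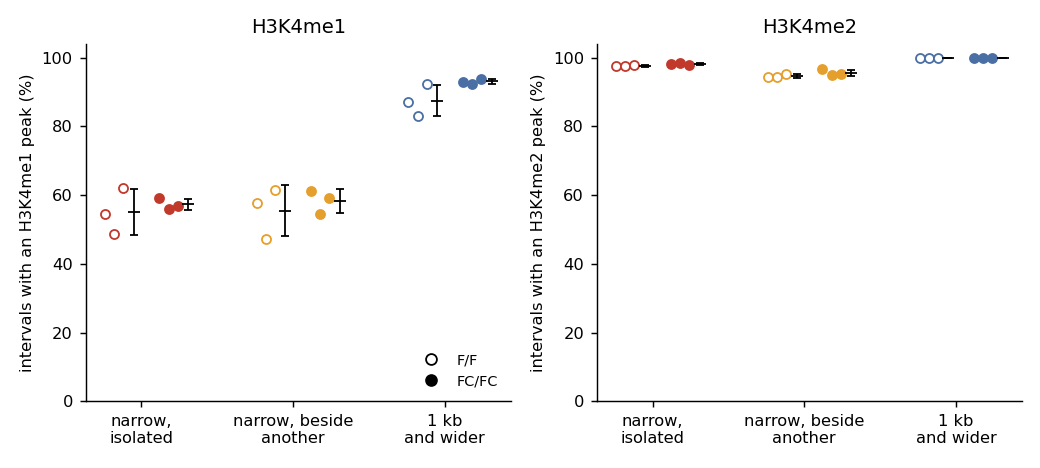
Percent of isolated, adjacent and wide promoter intervals overlapped by an H3K4me1 or H3K4me2 peak, with open points for F/F and filled points for FC/FC libraries and bars for the mean ± SD of 3. For all narrow intervals together H3K4me1 ran from 47.79% to 61.75%, below every wide value (83.17% to 93.88%), while H3K4me2 was close to 100% in each class. Any shared base counts as overlap, and wide intervals are longer by definition.

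The gene families at narrow intervals were read from gene lists, beside the 4.159% of all genes. Of all genes 48.03% had no shared promoter interval, and among genes with one, 8.017% had a narrow one. Housekeeping genes of the ribosome were wide: none of 83 cytosolic ribosomal genes had a narrow interval and 79 had a wide one, and none of 77 mitochondrial ribosomal genes had a narrow one and all 77 a wide one. Matrix genes of fibroblasts (0 of 35), p53 targets (0 of 25), H3K4 methyltransferase complex genes (0 of 18) and small nucleolar RNAs (0 of 108) had no narrow one either. Of the small nucleolar RNAs, 65 had a wide interval and 43 none. Keratins (0 of 105) had no shared promoter interval of any width. Zinc finger genes had 17 of 360, 7 of them isolated, solute carriers 20 of 358, among them the glutamate transporter gene Slc1a2, and microRNAs 15 of 1153. Protocadherins, clustered and other, which are adhesion molecules of neurons, had 7 of 71, all isolated. Among genes with any interval, a narrow one was at 5.28% of zinc finger, 10.64% of solute carrier, 8.824% of microRNA and 30.43% of protocadherin genes. Of Hox genes, which pattern the body axis, Hoxa13, Hoxc13 and Hoxd8 were members (3 of 39). Their intervals were adjacent ones, and each of these genes also lay near a wide interval.

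Genes of other lineages and inducible genes held a few. Epithelial genes had 3 of 20 (Cldn7 and Ocln of tight junctions and the adhesion molecule Epcam), neural genes 3 of 24 (Map2, Neurog2 and the synapsin gene Syn1), the haematopoietic list Coro1a (1 of 23) and the germ line list Dazl (1 of 45). Immediate early genes had Klf4, Klf6 and Nr4a2 (3 of 28), chemokines Cxcl10 and Cxcl5 (2 of 30), interferon-induced genes Gbp3 (1 of 36), and histone genes 2 of 67, one of them Hist1h1a. The DNA repair genes Fancf and Xpa were members (2 of 69), and so was the H3K4 demethylase gene Kdm1a (1 of 6). Map2, Neurog2, Klf4, Klf6, Nr4a2, Cxcl5, Hist1h1a, Fancf, Xpa and Kdm1a had adjacent intervals and also lay near a wide interval. Among these, only at Klf4, Hist1h1a and Kdm1a did the narrow interval hold the TSS. The intervals of Cldn7, Epcam and Dazl were isolated but did not hold the TSS. Of the study's most damaged genes, 413 had a symbol in the gene tables used here, and 5 of these were members: Adrm1, Ccnd3, Cdv3, Hsp90aa1 and Klf6. All 5 also lay near a wide interval. That list was made on this series and is no independent group. Myogenic (0 of 24), adipogenic (0 of 20) and endothelial (0 of 16) genes had none, and 23, 11 and 14 of them had no shared promoter interval of any width.

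**Figure D4:**
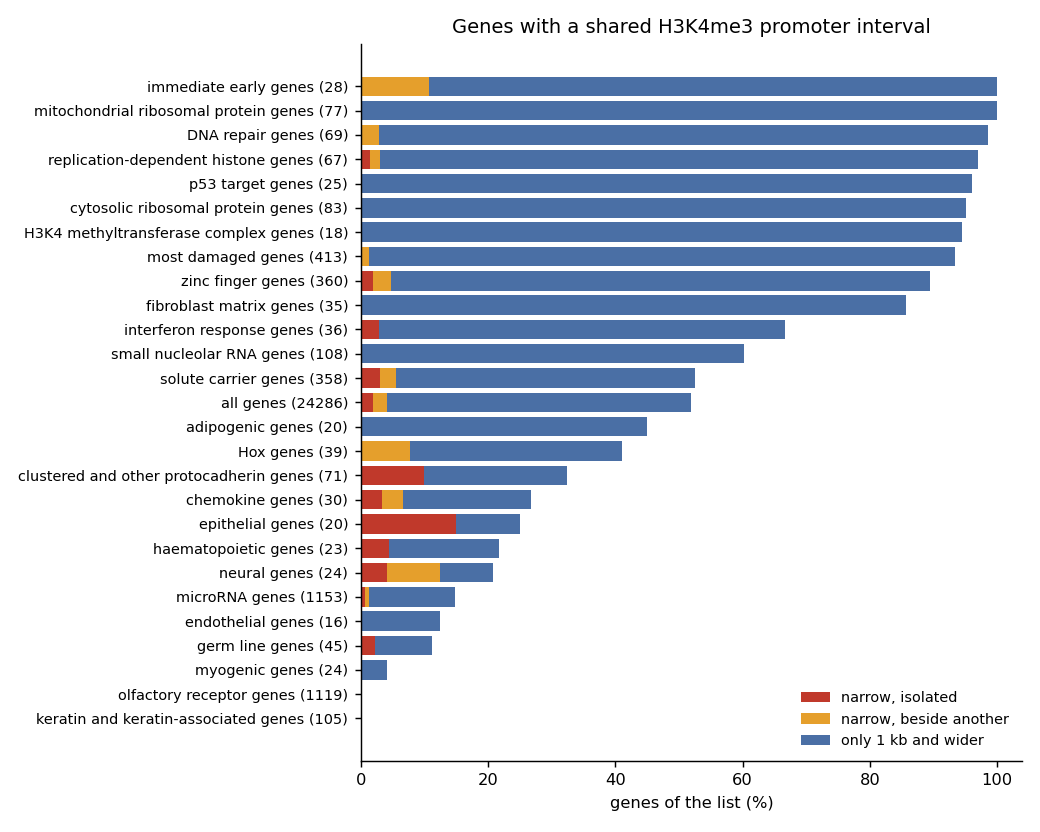
Percent of the genes of each list of at least 15 genes (list size in brackets) with a shared H3K4me3 promoter interval, as stacked bars from 0 for genes with an isolated narrow interval, with an adjacent narrow interval and with only a wide one. The ribosomal genes show wide intervals alone, and isolated intervals make up the larger part of the epithelial bar, at 3 of 20 genes.

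Members of these lists varied in how even their peaks were. At the isolated interval of Syn1 the peak was 930, 675 and 915 bp wide in F/F and 943, 835 and 1105 bp in FC/FC, and no library had an H3K4me1 peak there. At Cxcl10, a chemokine gene, the widths were 868, 1021 and 1097 bp and then 932, 1134 and 1015 bp, and H3K4me1 peaks were present in all 6 libraries. At Ccnd3, which encodes a G1 cyclin, they were 1140, 1095 and 1206 bp and then 1020, 1219 and 1052 bp. The adjacent interval of Kdm1a was the least even of these, at 2601, 785 and 771 bp in F/F against 2569, 2822 and 2600 bp in FC/FC, where F/F replicate 1 went with the FC/FC libraries.

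FC/FC was then compared with F/F. Counting peaks within 1000 bp of a TSS that were under 1000 bp wide in each library's own list, the share was 6.469%, 5.454% and 5.809% in F/F and 7.626%, 3.86% and 5.852% in FC/FC. The means, 5.91 ± 0.515% and 5.779 ± 1.884% (SD, n = 3 each), differed by less than the spread between replicates. These shares rest on the H3K4me3 peak widths that also chose the members, so they are given as a description, with no test.

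In the main limma fit, calls among genes with a narrow interval were for H3K4me2 alone. This depended on the processing, as limma-voom on reads recovered from RPKM called 33 for H3K4me1 and 26 for H3K4me2. These were 7.78% and 5.53% of the narrow genes tested, beside 5.77% and 4.44% of all genes. limma was fitted on log2(RPKM + 0.1) across all genes above 1 RPKM in at least 3 libraries, with Benjamini-Hochberg adjustment over all of them. Of 470 genes with a narrow interval that could be tested, 14 passed an adjusted p of 0.05 (2.98%), 4 higher and 10 lower in FC/FC, beside 2.14% of all 9986 genes (214, of which 59 or 0.591% higher and 155 or 1.55% lower), and 113 had an unadjusted p under 0.05 (24%), beside 29.1%. The median log2 change was 0.04 for the 470 and 0.07 for all genes. When the libraries were centred on their medians, 2 were higher and 26 lower, and all genes gave 28 and 406. The median of the narrow genes turned to −0.01 with that centring and to −0.0016 with quantile normalization, beside 0.02 for all genes in both. Without H3K4me2 FC/FC replicate 1, the library with the label in question, 105 of 460 passed (22.8%), 41 higher and 64 lower, beside 30% of all genes, and the median was −0.02, beside 0.06. Without F/F replicate 3, 0 passed, as did 0 of all 9834 genes. Without any of the other 4 libraries in turn, Crabp2 alone did, beside 3 to 18 of all genes (0.0305% to 0.182%). Of the 14, 11 could still be tested when an F/F library was left out.

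The genes that fell were led by Crabp2, which encodes a carrier of retinoic acid into the nucleus. Its H3K4me2 level was 5.97, 6.06 and 6.37 RPKM in F/F and 3.90, 3.84 and 3.72 in FC/FC, a log2 change of −0.67 ± 0.045 (SE; limma adjusted p = 0.00324). Tinagl1, a matricellular protein gene, had 2.98, 2.33 and 2.70 RPKM in F/F and 1.90, 1.55 and 1.47 in FC/FC (−0.67 ± 0.115, limma adjusted p = 0.0408). Tns1, the focal adhesion protein tensin, had 1.68, 1.49 and 1.68 RPKM against 1.25, 1.10 and 1.09 (−0.46 ± 0.072, limma adjusted p = 0.0346). In all 3 the FC/FC libraries lay below every F/F library. These levels cover the whole transcript and 500 bp on each side, which is 214219 bp of transcript at Tns1, and not the narrow interval alone. Gramd4 (−0.34), 1700012C14Rik (−0.32), the Hippo pathway scaffold gene Wwc1 (−0.31), the acyltransferase gene Agpat3 (−0.28), 6430548M08Rik (−0.27), St5 (−0.27) and the synapsin gene Syn3 (−0.26) fell too. Gramd4 and Wwc1, with transcripts of 79942 and 140912 bp, also had a wide interval.

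The genes that rose were 4. Hoxc13, needed for hair formation, had 1.64, 1.4 and 1.47 RPKM in F/F and 2.14, 1.88 and 1.99 in FC/FC (0.39 ± 0.072, limma adjusted p = 0.0461). This gene also had a wide interval, and its level too is over the whole transcript. Pcdhb21, a protocadherin gene, rose by 0.32, Gm5124 by 0.31 and the zinc finger gene Zfp773 by 0.30 on the log2 scale. Hoxc13, Pcdhb21 and Zfp773 were the only list members called for any mark, of 3, 4 and 7 that could be tested in their lists. The 10 genes with the largest change kept their direction in every alternative in which they were tested. In each of the 14 the F/F and FC/FC libraries did not overlap, which held for 132 of the 470 (28.09%) and for 35.7% of all genes.

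**Figure D5:**
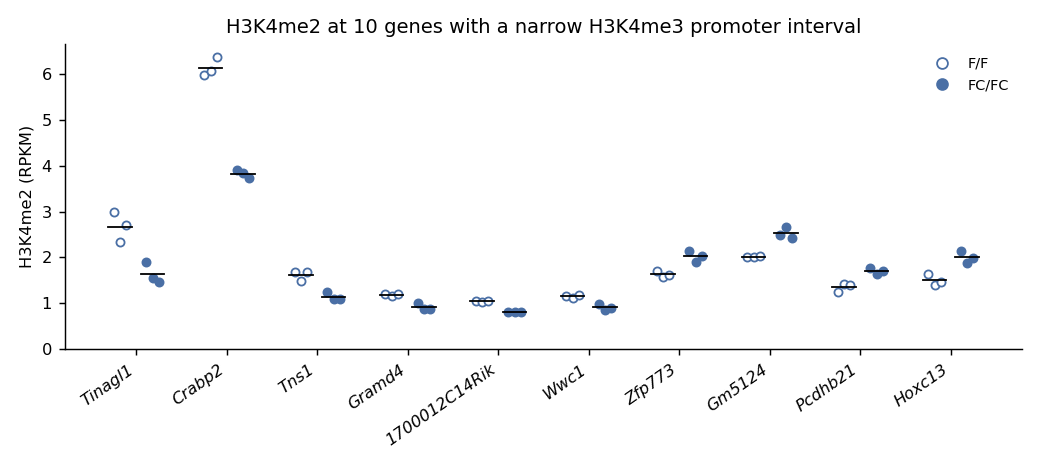
H3K4me2 level (y axis, RPKM, from 0) in each of the 3 F/F (open) and 3 FC/FC (filled) libraries, with a line at the mean, for the 10 genes with a narrow H3K4me3 promoter interval and the largest change among the 14 that passed. The groups do not overlap in any of them, and Crabp2 and Tinagl1 fall the most (log2 change −0.67 each). Levels cover the whole transcript and 500 bp on each side, not the narrow interval alone.

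For H3K4me3 and H3K4me1 the same fit called no gene. Of 313 genes with a narrow interval tested for H3K4me3, 68 of them with isolated intervals, 0 passed (percent called over all genes, 0.0), 23 had an unadjusted p under 0.05 (7.35%, beside 3.74% of all 9072 genes) and voom on recovered reads called 0. The libraries of the genotypes did not overlap in 32 (10.22%), beside 7.3% of all genes. The smallest p was again that of Crabp2, at 1.82, 2.34 and 2.17 RPKM in F/F and 0.96, 1.15 and 0.866 in FC/FC (−1.02 ± 0.117, limma adjusted p = 0.0932), and it passed when F/F replicate 1 or FC/FC replicate 2 was left out. Ctsf, a lysosomal cathepsin gene (0.42), Rplp2-ps1 (−0.26), Mex3d (0.23) and Zfp773 (0.22) were next by p, with adjusted p of 0.567 to 0.894 in limma. Rplp2-ps1 is a pseudogene of a ribosomal protein gene, so its reads are uncertain.

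For H3K4me1, 0 of 424 genes passed (0.0 over all genes), while 110 had an unadjusted p under 0.05 (25.9%) beside 25.0% of all 8566, and voom on recovered reads called 33, 9 higher and 24 lower, beside 5.77% of all genes. The genotypes did not overlap in 157 (37.03%), beside 30.5%. The median log2 change was −0.05 for these genes and −0.0027 for all genes. Of the 143 at isolated intervals, 24.48% had a positive change, beside 49.05% of all genes. This share depended on the processing, with 48.72% of 468 when low genes were kept (all genes, 65.13%) and 39.86% with voom (60.72%). The smallest p were those of Zbtb14 (0.44), C77080 (−0.35), the potassium channel gene Kcnn1 (−0.39), the proapoptotic BH3-only gene Bik (−0.34) and Neurl1a (−0.30), with limma adjusted p of 0.0656 to 0.0676.

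Crabp2 had 2 narrow intervals of its own, chr3:87948548-87949421 (874 bp, with the TSS at 87948693) and chr3:87949491-87950279 (789 bp), 69 bp apart. The peak over the first was 2440, 2658 and 2837 bp wide in F/F, where a single peak spanned both, and 1024, 2397 and 1732 bp in FC/FC. Its score was 1040, 1375 and 2220 in F/F and 234, 403 and 231 in FC/FC, so that the score, like the level, did not overlap. Only FC/FC replicate 1 divided the peak in 2, the second part being 1049 bp.

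Widths of the H3K4me3 peaks chose the members, so their differences between genotypes are given as a description, with no test, at the 5 narrow intervals that ranked first in a limma fit over all promoter intervals. At Atp1b3 (chr9:96364444-96365341, 898 bp) the peak was 1071, 1163 and 1096 bp wide in F/F and 3377, 3877 and 3977 bp in FC/FC. At Arhgap1 it was 857, 1548 and 1380 bp in F/F and 5359, 5522 and 4637 bp in FC/FC. At Kdm2b, a histone demethylase gene that brings Polycomb to CpG islands, the peak over the interval chr5:122900471-122901217 was 1305, 864 and 1369 bp and then 2503, 2804 and 2712 bp. In these 3 the FC/FC peaks were the wider, as they were at Ccdc3 (927, 555 and 594 bp against 1281, 1203 and 1361 bp). Ccl27b, a chemokine gene on an unplaced scaffold, went the other way, with 1137, 866 and 1203 bp in F/F and 607, 691 and 613 bp in FC/FC. As the 5 were picked by this very difference, the lack of overlap between genotypes in them carries no weight.

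At Atp1b3, Arhgap1 and Kdm2b the peak in FC/FC ran across a gap that was open in F/F. These were the only pairs of 628 (0.478%) that were joined in every FC/FC and separate in every F/F library, and 0 were the other way round (0.0). The gaps were 488 bp at 44.88% GC for Arhgap1 and the 127 bp printed above for Atp1b3. For Kdm2b the gap was 165 bp at 81.21% GC, between a wide interval and a narrow one of 415 bp that itself neighboured the interval described.

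Peaks of the other marks that were in all 3 libraries of a genotype and none of the other were few. H3K4me1 was gained in FC/FC at 3 narrow intervals (0.265%), beside 0.437% of all promoter intervals (53), and lost at 2 (0.1767%), beside 0.0165% (2). The gains were at H2-Ab1, a class II histocompatibility gene (scores 88.99, 60.3 and 125.24 in FC/FC, with the nearest F/F peak 51874 to 56900 bp away), at Podxl, a sialomucin gene (82.17, 51.02 and 53.13; 5580 to 6188 bp away), and at D630045J12Rik (77.56, 102.36 and 94.73; 487 to 607 bp away). The losses were at Evl, an actin regulator gene (97.79, 100.26 and 81.12 in F/F; the TSS of Gm16596 also lay within 1000 bp, so that peak cannot be assigned to either), and at Ephx2, the soluble epoxide hydrolase gene (112.18, 69.81 and 78.79). All these scores are near the lowest deposited score of 50.

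H3K4me2 was gained at 4 narrow intervals (0.3534%), which were all 4 of the gains among promoter intervals (0.033%), and lost at 0 (0.0). Of the 11002 wide intervals 10998 had an H3K4me2 peak in all 6 libraries, so almost none of them could gain one. At Klf4 the interval is the 97 bp sliver, with a score of 3100 in each FC/FC library, and F/F peaks ended 73 to 127 bp from it. At Glis1 the interval is 14 bp, with F/F peaks 3 to 26 bp away, and at Gm10409, a member of a family of near-identical copies, they were 21 to 42 bp away (FC/FC scores 86.28, 194.77 and 166.8). Only at Mir682 was the nearest F/F peak distant in every library, at 1668 to 53104 bp. Its FC/FC scores, 53.44, 87.64 and 69.67, were near the lowest deposited score of 50. At 3 of the 4, F/F peaks thus ended within 127 bp of the interval. With a score of at least 100 required, H3K4me2 gains were 2 at narrow intervals and 2 over all promoter intervals.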

How the data were processed

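ChIP reads had been base-called with CASAVA 1.4, aligned with BWA 0.7.10 and searched for peaks with MACS 1.4.2 against the H3 library, per the submitters' processing notes and the study's methods. The deposited peak score is that of MACS, from 50 upward, and the deposited RPKM was made by the authors over RefSeq transcripts extended by 500 bp at each end, per library and without replicate pooling. Whether peaks in blacklisted regions were removed before deposit is not given in the sources used here. Coordinates are mm10, 1-based.

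Peaks were intersected in Python 3.11.15. Genes were represented by 1 transcript of at least 250 bp, and limma 3.58.1 (R 4.3.3) was fitted on log2(RPKM + 0.1) with FC/FC against F/F as the only term. The fit was tested on simulated data. A planned fit on log2 peak width served to rank intervals and is not reported as a test, since widths chose the members. Whole reads were recovered from RPKM at a tolerance of 0.01 reads for limma-voom. Of the series, 34 samples were not used.

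Named intervals were those with the highest score ranks among TSS-holding peaks that were narrow in at least 5 libraries, those nearest to 1000 bp and the 3 narrowest, the largest changes among genes or intervals that passed (or, where fewer than 3 passed, the 5 smallest p), the strongest gains and losses, and list members in alphabetical order. The members and lists were chosen with earlier results of these data known, and a few list genes were named after their values were seen. With 3 libraries a group, p-values measure the spread between these libraries.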

Additional observations from a re-analysis of the deposited data

How the results depend on the processing

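The number of narrow intervals depended on the definition: 477 held the TSS, 186 were under 500 bp, 483 were isolated, 83 had a peak under 1000 bp in all 6 libraries, and leaving out 1 library gave 1036 to 1109. When each list was reduced to an equal count of its highest-scoring peaks, the difference in the share of short promoter peaks turned from −0.131 to 0.2892 percentage points, and leaving out 1 library gave −1.054 to 0.8287. The same choice moved the H3K4me2 peak difference from 0.766 to 1.443 points, and leaving out 1 library gave 0.486 to 0.987. For H3K4me1 the difference was 2.591 points and ran from −1.178 to 5.801 without 1 library. Centring on library medians, quantile normalization and voom called 5, 4 and 33 genes for H3K4me1 (0 to 0 without 1 library) and 28, 25 and 26 for H3K4me2, of which 12, 11 and 9 were among the 14. For H3K4me1 these were 1.18%, 0.943% and 7.78%, beside 1.02%, 1% and 5.77% of all genes. For H3K4me2 they were 5.96%, 5.32% and 5.53%, beside 4.35%, 3.4% and 4.44%. Leaving out 1 library gave 0 to 105 genes for H3K4me2 and 0 to 1 for H3K4me3, beside 0 to 2962 and 0 to 2 of all genes. H3K4me1 gains at narrow intervals were 6 to 17 (0.53% to 1.502%) when 1 library was left out, beside 81 to 243 (0.6675% to 2.003%) over all promoter intervals. Losses were 3 to 14 (0.265% to 1.237%), beside 5 to 23 (0.0412% to 0.1896%). For the named genes, 174 alternative values kept their call, 55 lost it and 16 gained it, with no change of direction. The causes were not tested. No paired analysis was possible because the labels give no replicate numbers that tie an F/F to an FC/FC library. Of 1010 genes with a narrow interval, 313 to 470 were above the RPKM filter of a mark, and 995 were tested with no filter.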
